A study of Homo sapiens with 4 samples.

Results

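Solute carriers are membrane proteins that move ions, metals, sugars, nucleotides, vitamins and other small molecules across the plasma membrane and the membranes of organelles. Described here are 110 solute carrier genes of 14431 listed genes. They are the genes with a symbol of SLC, a family number, the letter A and a member number, without the families SLC1, SLC2, SLC3, SLC7, SLC16, SLC25 and SLC38, which hold the best known carriers of glutamate, glucose, amino acids, monocarboxylates and mitochondrial substrates. Symbols of that pattern numbered 188 in all, and 78 of these were in the 7 families left out. The rule used no measured value.

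RNA was sequenced from HGC27, a human gastric cancer cell line, in 2 control libraries of wild-type genotype and 2 libraries with AARS1 knocked down by a small interfering RNA (siAARS1). AARS1 is the cytosolic alanyl-tRNA synthetase, which joins alanine to its tRNA. All 4 libraries came from cells kept without glucose in DMEM with 10% FBS and antibiotics and given 25 mM lactate, for 24 h per the labels, while the text of the study gives another duration. Nothing in the labels says that replicates were separate cultures, so the p-values measure the spread between these libraries, which may be technical. No library was kept without lactate, and 1 cell line was used.

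The carriers fall into working classes by what they move. Zinc is exported from the cytosol by most of the SLC30 family and brought into it by the SLC39 family, while iron, copper and magnesium have carriers of their own. Bicarbonate exchangers, sodium-proton exchangers and cation-chloride cotransporters set the pH of the cell, its volume and its chloride level, and SLC35A proteins carry nucleotide sugars into the Golgi, where glycans are built. Of the 110 carriers, 28 were in the ion exchange class, 24 in the metal ion class, 19 in the sugar, vitamin, choline and heme class, 12 in the class of organic ions, bile acids, carboxylates and fatty acids, 11 each in the nucleoside and phosphate class and the neurotransmitter, amino acid and peptide class, and 5 were nucleotide sugar carriers.

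Reads in listed genes numbered 30653210 to 33522573 per library, and 1 read was worth 0.0293 to 0.0324 CPM, the unit of reads scaled to library size. AARS1, listed as AARS, had 428 and 417 CPM in control cells and 292 and 298 CPM after the knockdown, so that 69.8% of the control level remained (log2 fold change -0.52, SE 0.036, limma adjusted p 2.52e-11). Of the markers of an epithelial cell, KRT8 and CDH1 were listed, and their summed level was 27.04 to 27.3 CPM in the control and 6.14 to 7.29 CPM with siAARS1. None of the 6 gastric epithelial markers (such as MUC5AC and TFF1) was among the genes listed. All 4 fibroblast markers were, with summed levels of 2702 to 2796 CPM in the control and 1881 to 1971 CPM with siAARS1. Of these 3 were called lower and 1 higher. The latter was DCN, with 239 and 250 CPM in the control and 258 and 270 CPM with siAARS1 (log2 fold change 0.11). Of the 4 mesenchymal markers 3 were listed, of which 1 was higher and 2 were lower, with a summed level of 5150 to 5210 CPM in the control and 4704 to 4814 CPM with siAARS1. VIM went from 5131 and 5068 CPM to 4710 and 4600 CPM and FN1 from 72.6 and 75.4 CPM to 54.2 and 51.7 CPM, while ZEB1, a repressor of epithelial genes, had 6.16 and 6.84 CPM in the control and 50.03 and 52.3 CPM with siAARS1. After the correction for GC content and length described below, DCN was lower (-1.29) and VIM was higher (0.14). The other markers listed kept their direction. No leukocyte or endothelial marker was listed. The part of these differences in the results was not tested, and in bulk RNA fewer cells of a type and less RNA per cell cannot be told apart.

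In siAARS1 cells 33 of the 110 carriers were higher and 52 were lower at an adjusted p under 0.05 (limma on log2(CPM + 1), Benjamini-Hochberg over the 14199 genes tested), and 25 passed in neither direction. All 110 passed the filter of a mean of 1 CPM in 1 group. Among those called, SLC18A2, SLC24A2 and SLC26A7 passed only through the siAARS1 group, so that a fall could not be called for them. SLC4A3 passed only through the control group, so that a rise could not be called for it. The calls were 77.3% of the carriers, of which 38.8% were rises. Of all genes tested 70.7% were called, 32.6% higher and 38.0% lower, the shares to set beside each count of calls by class on the deposited CPM below. The median log2 fold change of the carriers was -0.15 and that of all genes was -0.05. For the 78 solute carriers of the 7 other families the median was also -0.15, with 23 higher and 39 lower.

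Counted as log2(CPM + 1), changes of 2-fold or more were called for 9 carriers that rose (8.18%, and 10.6% of all genes) and 4 that fell (3.64%, and 1.63% of all genes). Those that rose were SLC5A3, SLC39A10, SLC12A2, SLC44A5, SLC4A7, SLC30A1, SLC5A12, SLC30A9 and SLC26A7. Those that fell were SLC22A17, SLC17A7, SLC29A4 and SLC27A1. Adding 1 CPM understates the change of low genes, and by the ratio of mean CPM the called rises of SLC18A2 (3.19-fold), SLC24A2 (3.04-fold), SLC30A7 (2.01-fold) and SLC9A2 (2.01-fold) and the called fall of SLC4A3 (to 33.2% of the control) were also past 2-fold. On whole reads edgeR with TMM called 13 rises and 5 falls of that size. The rise of SLC24A2 rested on 9 and 16 reads in the control libraries and 33 and 42 reads in the siAARS1 libraries. With the correction for GC content and length described below it was not called (0.12, adjusted p 0.551). In 100 of the 110 carriers (90.9%) the siAARS1 libraries did not overlap the control libraries, against 85.1% of all genes tested. Among the 10 with overlapping groups were SLC4A2, SLC9A9, SLC30A4, SLC36A1, SLC35A4, SLC27A5, SLC27A3, SLC45A4 and SLC23A3.

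**Figure D1:**
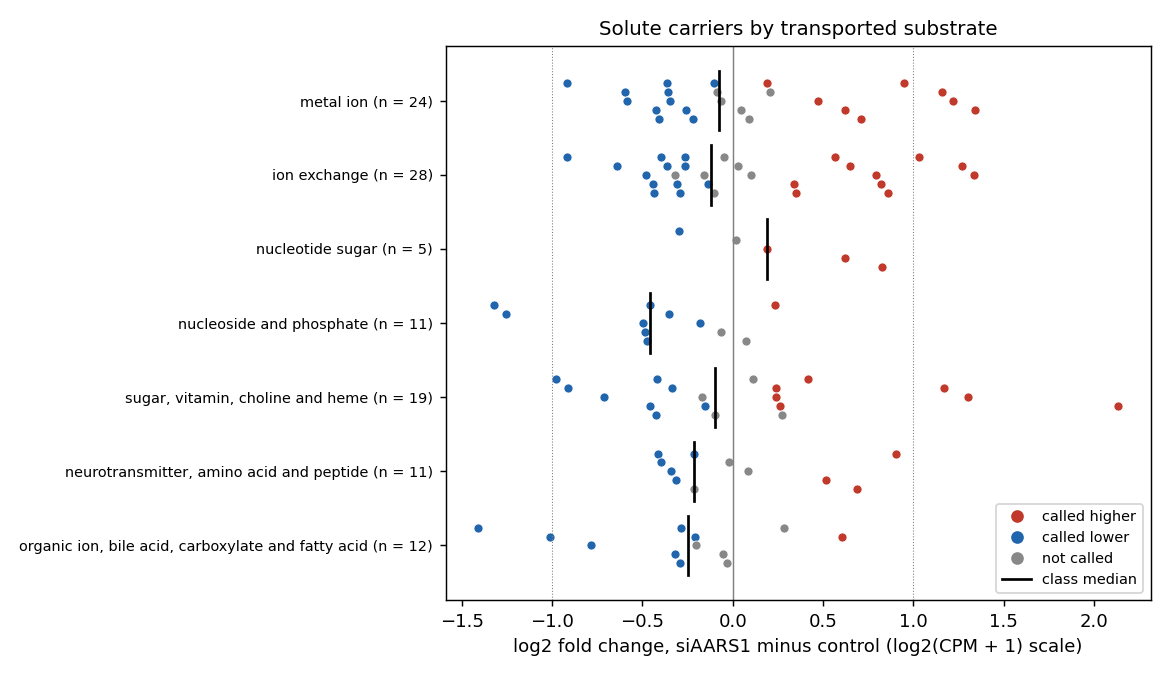
Log2 fold change of each of the 110 carriers (siAARS1 minus control, on the log2(CPM + 1) scale), by class. Each point is 1 gene, red for called higher, blue for called lower and grey for not called, and the bar is the class median. The nucleoside and phosphate class has the lowest median (-0.46), and 1 of its 11 genes is red, while SLC5A3 stands furthest to the right at 2.13.

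The split depended on how libraries were scaled. When the median gene of each library was set equal, the median over all genes tested went from -0.05 to -0.26. Then 25 carriers were higher and 71 lower, so that 26.04% of the calls were rises in place of 38.8%. Of the calls over all genes tested, 29.7% were rises in place of 46.2%. On the whole reads behind the CPM, edgeR with TMM scaling called 36 higher and 48 lower, and DESeq2 called 34 higher and 38 lower. Rises were 42.9% and 47.2% of these calls, against 50.3% and 53.8% of the calls over all genes. Of the members called higher, SLC30A5 and SLC35A1 had the opposite sign under median scaling and SLC35A1 also under quantile normalization, and no member called lower changed sign under either.

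The change also followed base composition. Transcript GC content and log2 fold change had a Spearman rank correlation of -0.67 over the 109 carriers with a GENCODE v29 transcript and -0.66 over the 13819 genes tested that had one. For transcript length it was 0.45 over the carriers and 0.31 over the genes. These are descriptions across genes of the same 4 libraries, and genes are not independent replicates. When all genes were divided into 5 classes of equal size by GC content, 22 of the 26 carriers in the lowest class (35.0% to 41.2% GC) were called higher and 1 lower, with a median log2 fold change of 0.70. In the highest class (59.0% to 66.9% GC) 2 of 26 were higher and 20 lower, with a median of -0.37. Of all genes in the lowest class 80.4% were called higher and 3.36% lower, with a median of 0.77. In the highest class 4.92% of all genes were higher and 67.4% lower, with a median of -0.30. The shares of the carriers were near these, with 84.6% higher in the lowest class and 76.9% lower in the highest.

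**Figure D2:**
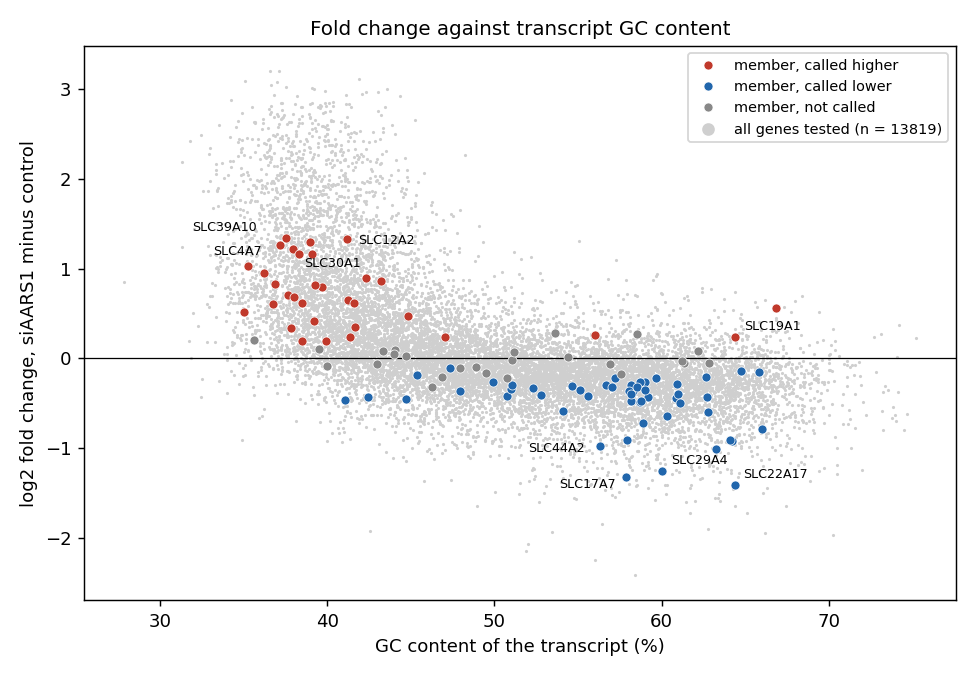
Log2 fold change (siAARS1 minus control) against GC content of the transcript in percent, for the 13819 genes tested that have a transcript (light grey) and the 109 carriers among them (red called higher, blue called lower, dark grey not called). The carriers lie within the cloud of all genes, with most red points at the low end of GC content and SLC19A1 among the few above it.

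A second set of values was therefore computed, in which the smooth trend of each library with transcript GC content and length was taken out before the same test. A corrected value describes a gene relative to genes of like GC content and length, and any true change that follows these properties is taken out too. After correction 23 carriers were higher (32.7% of all genes were) and 46 were lower (33.3% of all genes were), with a median of -0.11 against -0.0035 for all genes. Over the 109 carriers the corrected values still had a Spearman rank correlation of 0.28 with GC content, against 0.046 over all genes. In the lowest GC class the corrected median was -0.41 for the carriers and -0.066 for all genes. In the highest class it was -0.034 and 0.029. Of the 33 carriers called higher on the deposited values, 9 remained higher, 15 were called lower, 8 were called in neither direction and SLC5A3 had no transcript for the correction. Of the 52 called lower, 23 remained lower, 5 were called higher and 24 were called in neither direction. Whether GC content and length have a technical or another part in the differences was not tested, so both values are given for most of the genes named below.

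The metal ion carriers comprised 8 genes called higher, 11 called lower and 5 in neither direction, with a median log2 fold change of -0.075. After correction the class had 2 genes higher and 15 lower, with a median of -0.25. Of all genes 32.7% were higher and 33.3% lower after correction, the shares to set beside each corrected count by class or family below. Of the 7 SLC30 genes, 5 were higher, SLC30A3 was lower and SLC30A4 was not called, with SLC30A5 of the opposite sign under median scaling (-0.034). The family takes zinc out of the cytosol, apart from SLC30A9, which takes it out of mitochondria. The SLC30 median went from 0.71 to -0.54 with the correction, after which none was called higher and 5 were called lower. Of the 10 SLC39 genes, which bring zinc into the cytosol, 3 were higher and 6 lower, and after correction 2 were higher and 4 lower.

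SLC39A10, a zinc importer of the plasma membrane (ENSG00000196950, chromosome 2, 195575977 to 195737702, GRCh38), had 20.7 and 21.3 CPM in control cells and 53.4 and 55.9 CPM after the knockdown. Both siAARS1 libraries were far above both controls. The log2 fold change was 1.34 (SE 0.062, adjusted p 2.17e-14), and 0.059 after correction (adjusted p 0.333). Its transcript has 37.6% GC. SLC39A6, a related zinc importer, went from 63.0 and 67.3 CPM to 101 and 101 CPM, a log2 fold change of 0.62 that was 0.062 after correction.

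SLC30A1 is the exporter that moves zinc out of the cell through the plasma membrane, and its transcription is known to respond to zinc through the factor MTF1. It had 14.6 and 15.2 CPM in control cells and 34.3 and 37.8 CPM after the knockdown, with no overlap of the groups. The log2 fold change was 1.22 (SE 0.074, adjusted p 2.74e-12) and was -0.013 after correction (adjusted p 0.866). SLC30A3, which loads zinc into synaptic vesicles in neurons, went the other way. It had 21.4 CPM in both controls and 10.7 and 11.1 CPM after the knockdown, all lower than either control. Its log2 fold change was -0.91 (SE 0.083, adjusted p 2.80e-09), and -0.55 after correction (adjusted p 9.83e-06).

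The promoters of these zinc carriers are shown because on the deposited CPM they moved in opposite directions. Both hold a pair of matches to the core of the metal response element, the motif that MTF1 binds. Each is 300 bases, 250 before and 50 after the RefSeq start, read on the minus strand of GRCh38.p14. The core was searched as TGCACNC and TGCGCNC on both strands, and matches are in capitals.
SLC30A1, chr1:211579112-211579411: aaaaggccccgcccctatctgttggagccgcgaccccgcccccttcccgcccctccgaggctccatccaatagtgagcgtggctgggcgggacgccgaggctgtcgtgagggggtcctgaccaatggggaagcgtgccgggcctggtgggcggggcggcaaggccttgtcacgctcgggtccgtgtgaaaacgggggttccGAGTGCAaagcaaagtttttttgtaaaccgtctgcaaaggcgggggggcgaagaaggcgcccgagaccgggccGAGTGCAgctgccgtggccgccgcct
SLC30A3, chr2:27275297-27275596: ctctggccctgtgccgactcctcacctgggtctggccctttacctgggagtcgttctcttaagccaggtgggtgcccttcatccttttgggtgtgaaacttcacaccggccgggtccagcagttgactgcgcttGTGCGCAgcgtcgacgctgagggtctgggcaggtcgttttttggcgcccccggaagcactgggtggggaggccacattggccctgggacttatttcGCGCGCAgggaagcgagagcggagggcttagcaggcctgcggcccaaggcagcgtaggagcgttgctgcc
All 4 matches lie on the strand opposite to the gene. A match was found in 29.4% of all 27305 RefSeq promoters of this length, and 8.59% held 2 or more. Of the 92 carriers with a RefSeq promoter 30 held a match (32.6%), and of 22 metal ion carriers 7 did. Those 7 were SLC30A1, SLC30A6 and SLC39A6, which were called higher, SLC30A3, SLC39A3 and SLC40A1, which were called lower, and SLC30A4, which was not called. Like SLC30A1 and SLC30A3, SLC40A1 held 2 matches. A match is a description of letters and shows no binding.

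SLC30A9, which moves zinc out of mitochondria, had 19.9 and 21.8 CPM in the control and 45.04 and 50.6 CPM in the siAARS1 libraries (log2 fold change 1.16, and -0.052 after correction). SLC30A7, which supplies zinc to the Golgi, had 12.4 and 12.2 CPM in the control and 23.6 and 25.8 CPM in the siAARS1 libraries (0.95, and -0.54 after correction). Both stood above the controls in each siAARS1 library, and each had a corrected value below 0. SLC30A5, whose product works in the early secretory pathway, had the smallest rise of the family, from 49.5 and 50.3 CPM to 55.7 and 58.5 CPM (0.19, and -0.66 after correction).

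SLC39A7, which releases zinc from the endoplasmic reticulum, had 209 and 205 CPM in the control and 162 CPM in both siAARS1 libraries (log2 fold change -0.35, and -0.072 after correction). Per kilobase of transcript it was the most abundant metal ion carrier, at 85.9 CPM per kb in the control and 67.4 in siAARS1 cells, ahead of SLC39A1, a zinc importer of the plasma membrane with 67.5 CPM per kb in the control. SLC39A13, a zinc carrier of the Golgi, had 35.96 and 32.9 CPM in the control and 22.3 and 22.4 CPM in the siAARS1 libraries (-0.60, and -0.24 after correction). All of these siAARS1 values lay under the controls. SLC39A14, which takes up zinc, manganese and iron not bound to transferrin, was lower by a smaller amount, 188 and 187 CPM against 173 and 175 CPM (-0.11, and -0.11 after correction), and its call was lost without control replicate 1 (-0.10, adjusted p 0.10), control replicate 2 (-0.11, adjusted p 0.0772) or siAARS1 replicate 1 (-0.095, adjusted p 0.0612).

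None of the 7 iron, copper and magnesium carriers was called higher, and 4 were called lower. Of all genes tested 32.6% were called higher and 38.0% lower, and 7 genes are few to set against these shares. SLC40A1, or ferroportin, the exporter of iron, had 14.3 and 15.6 CPM in the control and 9.52 and 12.4 CPM in the siAARS1 libraries (log2 fold change -0.43, and -0.85 after correction). Both siAARS1 libraries were below the controls, but they differed from each other more than the controls did, and without siAARS1 replicate 1 the value was -0.25 (adjusted p 0.0550). SLC11A2, the importer of divalent iron, had 58.1 and 58.7 CPM in the control and 55.2 and 56.4 CPM in the siAARS1 libraries and was not called (-0.064, adjusted p 0.263, and -0.54 after correction). SLC31A1, the copper importer, had 70.5 and 69.2 CPM against 71.3 and 72.9 CPM and was not called (0.045, adjusted p 0.410). After correction it was lower (-0.32). SLC41A1, which exports magnesium, fell from 80.8 and 76.8 CPM to 57.5 and 60.6 CPM (-0.41, and -0.21 after correction), and its relative SLC41A3 fell from 11.1 and 11.3 CPM to 7.03 and 7.25 CPM (-0.59, and -0.35 after correction).

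**Figure D3:**
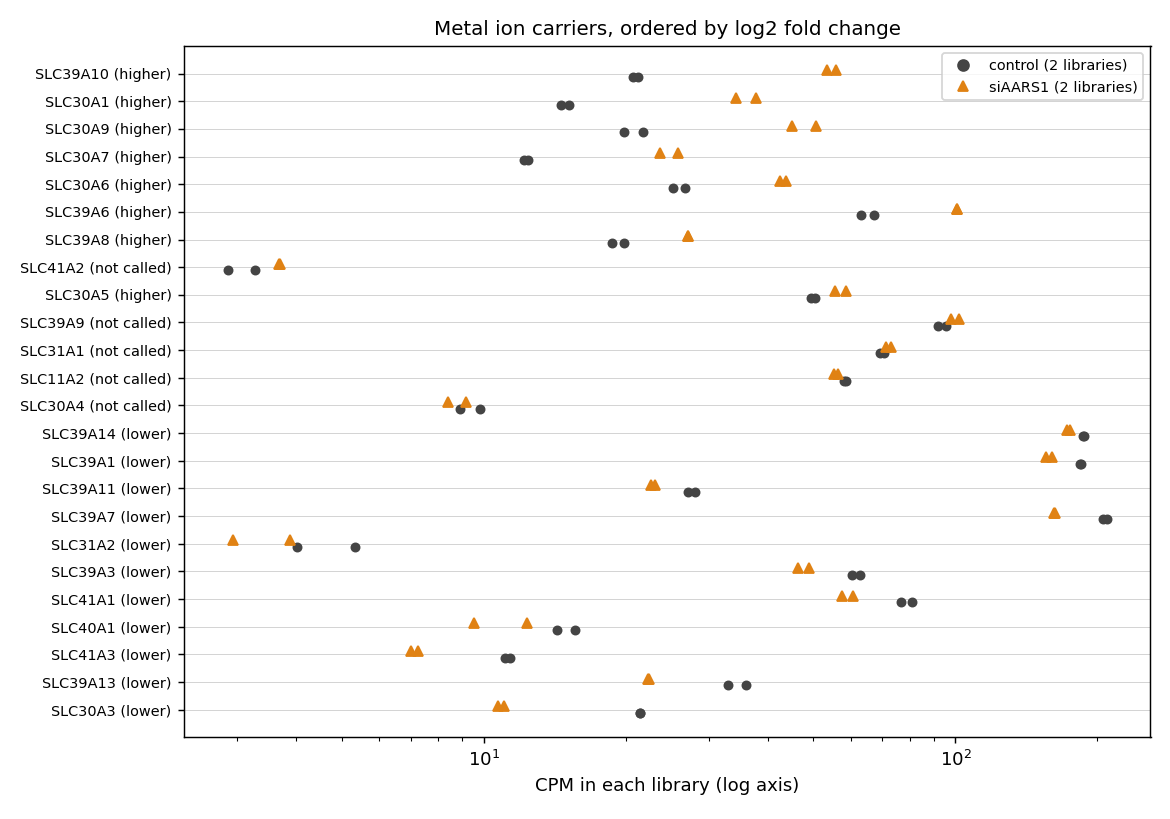
CPM of the 24 metal ion carriers in each library on a log axis, ordered by log2 fold change, with grey circles for the 2 control libraries and orange triangles for the 2 siAARS1 libraries. SLC39A10 at the top lies near 21 CPM in the control and above 53 CPM in the siAARS1 libraries, SLC30A3 at the bottom lies at 21.4 CPM and near 11 CPM, and SLC30A4 is the gene whose groups overlap.

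Of the 17 genes listed as partners in metal handling, 16 were listed in the table, with 6 higher (32.6% of all genes were), 9 lower (38.0% of all genes were) and 1 not called. TRPM7, a channel for magnesium and zinc with a kinase domain, had 6.95 and 7.69 CPM in the control and 54.1 and 61.7 CPM in the siAARS1 libraries (log2 fold change 2.82, and 1.51 after correction), a larger rise than that of any of the 110 carriers. ATP7A, the copper-exporting ATPase, had 4.08 and 5.08 CPM against 15.3 and 16.4 CPM (1.60, and 0.34 after correction). Its relative ATP7B fell from 19.3 and 19.5 CPM to 12.2 and 12.3 CPM (-0.62, and -0.44 after correction). CCS, the chaperone that hands copper to superoxide dismutase, fell as well (-0.58, and -0.24 after correction). MTF1, named here after its values were seen because of the motif above, had 22.6 and 22.8 CPM in the control and 30.2 and 30.5 CPM in the siAARS1 libraries (0.40, adjusted p 1.60e-05, and 0.17 after correction).

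The ion exchange class had 10 genes called higher, 12 called lower and 6 in neither direction, with a median log2 fold change of -0.12, and after correction 5 were higher and 9 lower. SLC12A2, the sodium-potassium-chloride cotransporter NKCC1 (ENSG00000064651, chromosome 5, 128083766 to 128189688), had 11.5 and 13.4 CPM in the control and 31.8 and 33.96 CPM with siAARS1. The groups were well apart. The log2 fold change was 1.34 (SE 0.082, adjusted p 3.53e-12), and it stayed positive after correction at 0.38 (adjusted p 2.23e-04). Among the 9 carriers with a rise of 2-fold or more, SLC12A2 and SLC44A5 were the ones still called higher after correction, with no corrected value for SLC5A3.

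The potassium-chloride cotransporters, which move chloride out of the cell, held no gene called higher. SLC12A4 had 36.6 and 40.1 CPM in the control and 28.1 and 27.7 CPM in the siAARS1 libraries (log2 fold change -0.44, and -0.10 after correction), and it overlaps LCAT on the same strand. SLC12A7 had 159 and 162 CPM against 125 and 119 CPM (-0.40, and -0.046 after correction). Both fell below their controls in each siAARS1 library. WNK1, a kinase that acts upstream of these cotransporters, had 146 and 152 CPM in the control and 248 and 241 CPM in the siAARS1 libraries (0.71, and 0.59 after correction).

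Of the carriers of bicarbonate, SLC4A7, a sodium-bicarbonate cotransporter (ENSG00000033867, chromosome 3, 27372721 to 27484420), had 25.2 and 25.97 CPM in the control and 61.6 and 64.8 CPM in the siAARS1 libraries, without overlap. Its log2 fold change was 1.27 (SE 0.058, adjusted p 1.95e-14), and after correction it was called lower at -0.20 (adjusted p 0.00156). SLC4A4, another sodium-bicarbonate cotransporter, had 7.74 and 8.45 CPM against 14.6 and 15.4 CPM (0.82, and -0.38 after correction). SLC4A2, the chloride-bicarbonate exchanger AE2, was the most abundant of the 109 carriers with a known transcript length per kilobase of transcript, at 107 CPM per kb in the control and 103 in siAARS1 cells. Its 4 libraries had 532 and 523 CPM in the control and 526 and 493 CPM with siAARS1, so the groups overlapped and it was not called (-0.05, adjusted p 0.226), while after correction it was called higher (0.30). SLC4A3, the chloride-bicarbonate exchanger AE3, fell from 2.73 and 2.08 CPM to 0.842 and 0.752 CPM (-0.92, and -0.69 after correction). SLC4A11, a transporter best known from the cornea, fell from 24.3 CPM in both controls to 18.3 and 17.2 CPM (-0.44, and -0.11 after correction).

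Sodium-proton exchangers acidify or alkalinize compartments by trading sodium for protons. SLC9A2, a form of the plasma membrane, had 4.22 and 4.29 CPM in the control and 8.58 and 8.48 CPM in the siAARS1 libraries (log2 fold change 0.86, and 0.41 after correction). SLC9A3R1, a scaffold that binds such exchangers, had 57.2 and 57.3 CPM in the control and 37.8 and 39.9 CPM in the siAARS1 libraries (-0.55, and -0.19 after correction).

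The sulfate carrier SLC26A2 had 17.1 and 18.3 CPM in the control and 30.1 and 32.7 CPM in the siAARS1 libraries (log2 fold change 0.79, and -0.44 after correction). SLC26A11, of the same family, fell from 8.18 and 7.19 CPM to 4.37 and 4.75 CPM (-0.64, and -0.34 after correction). In neither gene did the groups overlap. The largest ratio of the class was in SLC26A7, a chloride and iodide carrier, but it rested on 4 and 8 reads in the control libraries and 35 and 58 reads in the siAARS1 libraries, 0.117 and 0.252 CPM against 1.13 and 1.75 CPM, and it overlaps LRRC69 on the same strand. Of 15 partners of ion transport 14 were tested, with 3 higher (32.6% of all genes were), 7 lower (38.0% of all genes were) and 4 not called. CA12, a carbonic anhydrase at the cell surface, was among those that fell (-0.37, and -0.26 after correction), and the sodium-proton exchanger SLC9B2, outside the rule by its letter, was among those that rose (0.21, and 0.24 after correction), but it had the opposite sign under median scaling (-0.013) and quantile normalization (-0.023). Its call was also lost without control replicate 2 (0.18, adjusted p 0.117) or siAARS1 replicate 2 (0.11, adjusted p 0.331).

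**Figure D4:**
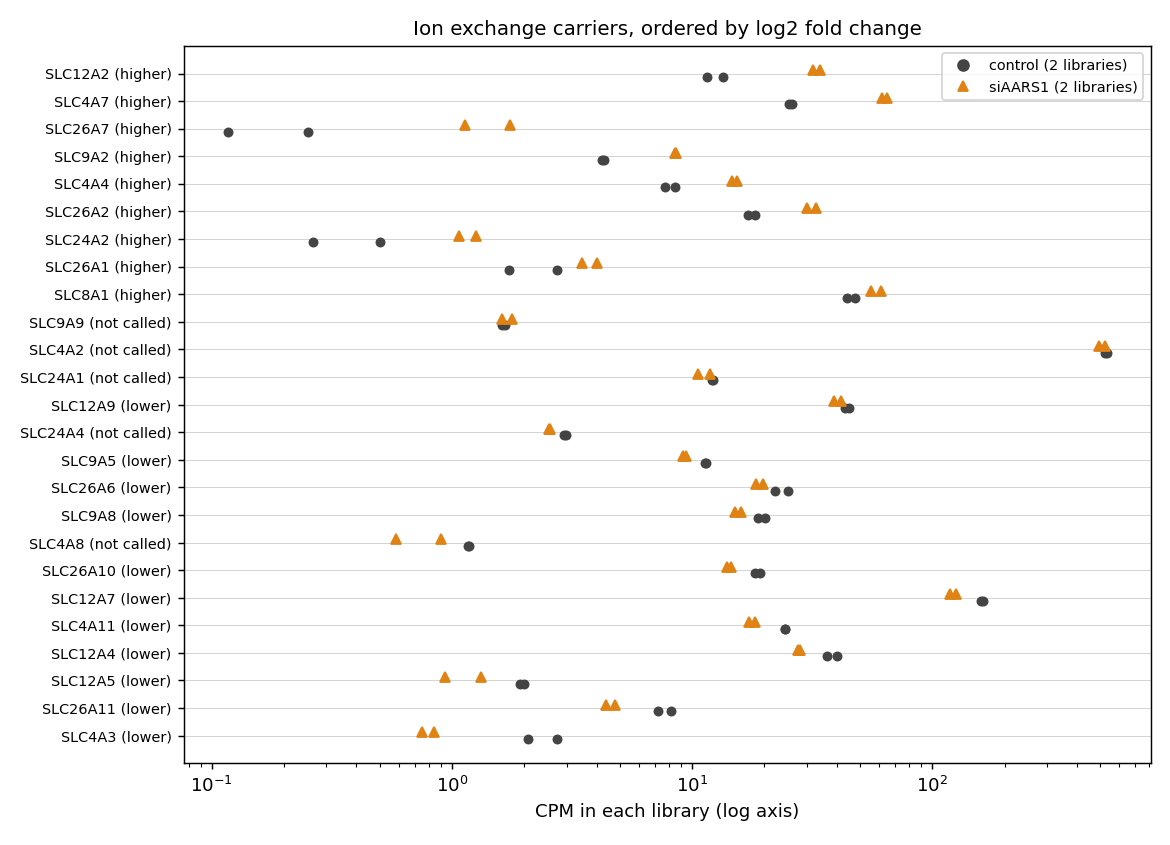
CPM of 25 of the 28 ion exchange carriers in each library on a log axis, ordered by log2 fold change, with grey circles for the 2 control libraries and orange triangles for the 2 siAARS1 libraries. SLC12A2 and SLC4A7 head the plot with control values of 11.5 to 25.97 CPM and siAARS1 values of 31.8 to 64.8 CPM, and SLC4A2 is the gene furthest to the right, near 500 CPM in all 4 libraries.

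The 5 nucleotide sugar carriers comprised 3 called higher, 1 called lower and 1 not called. SLC35A3, which carries UDP-N-acetylglucosamine into the Golgi, had 10.4 and 10.1 CPM in the control and 17.0 and 20.9 CPM in the siAARS1 libraries (log2 fold change 0.83, SE 0.097, adjusted p 1.47e-07). SLC35A5, a Golgi carrier of UDP-sugars, had 20.2 and 22.2 CPM against 31.1 and 35.3 CPM (0.62, adjusted p 2.06e-07). Both stood above the controls and both were called lower after correction, at -0.63 and -0.36. SLC35A1, the carrier of CMP-sialic acid, had 17.2 and 16.4 CPM against 18.8 and 19.8 CPM (0.19, adjusted p 0.0372, and -0.28 after correction). That call was lost without any 1 of the libraries, with values of 0.23 without control replicate 1, 0.16 without control replicate 2, 0.22 without siAARS1 replicate 1 and 0.16 without siAARS1 replicate 2, its sign was opposite under median scaling (-0.026) and quantile normalization (-0.040), and the gene overlaps C6orf165 on the same strand.

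SLC35A2, the carrier of UDP-galactose, had 19.3 and 19.9 CPM in the control and 15.7 and 15.9 CPM in the siAARS1 libraries, all below the controls (log2 fold change -0.30, adjusted p 0.00216, and -0.017 after correction). SLC35A4, a Golgi carrier of CDP-ribitol, had the highest level of the 5 per kilobase, at 43.2 CPM per kb in the control and 43.8 in siAARS1 cells, with overlapping groups and no call (0.018, adjusted p 0.706, and 0.26 after correction). Family members with other letters, SLC35B to SLC35F, numbered 15 in the table, with 4 higher (32.6% of all genes were), 9 lower (38.0% of all genes were) and 2 not called. SLC35B3, a carrier of the sulfate donor PAPS, rose from 9.003 and 10.6 CPM to 15.3 and 16.0 CPM (0.63, and 0.30 after correction). SLC35F5 rose too (0.60), and after correction it was lower (-0.33). SLC35C1, the carrier of GDP-fucose, fell from 45.3 and 43.3 CPM to 32.8 and 31.4 CPM (-0.45, and -0.10 after correction), and SLC35E4 fell from 10.7 and 10.3 CPM to 6.64 and 7.70 CPM (-0.49, and -0.15 after correction).

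The nucleoside and phosphate class had 1 gene called higher, 8 called lower and 2 in neither direction, and the median log2 fold change of -0.46 was the lowest of the 7 classes. After correction the median was -0.16, with 3 higher and 5 lower. SLC29A4, which carries monoamines at the plasma membrane (ENSG00000164638, chromosome 7, 5274369 to 5306870), had 109.5 and 113 CPM in the control and 48.02 and 43.9 CPM with siAARS1. Its siAARS1 level was 41.4% of the control, with a log2 fold change of -1.26 (SE 0.051, adjusted p 2.77e-15) that was -0.92 after correction (adjusted p 1.35e-11). SLC17A7, which loads glutamate into synaptic vesicles, had 6.69 and 8.45 CPM in the control and 2.27 and 2.56 CPM in the siAARS1 libraries (-1.32, and -1.06 after correction). Both genes were lower in each siAARS1 library than in either control.

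The equilibrative nucleoside transporters, the relatives of SLC29A4, changed less. SLC29A2 had 108 and 104 CPM in the control and 77.1 and 72.1 CPM in the siAARS1 libraries (log2 fold change -0.50, and -0.14 after correction), and the lysosomal SLC29A3 had 13.5 and 12.8 CPM against 9.42 and 8.78 CPM (-0.48, and -0.18 after correction). SLC29A1, the most abundant of them per kilobase at 67.9 CPM per kb in the control, had 155 and 160 CPM against 154 and 147 CPM and was not called (-0.067, adjusted p 0.151), but was called higher after correction (0.24). SLC17A5, which carries sialic acid out of lysosomes, fell from 11.6 and 14.4 CPM to 9.36 and 8.93 CPM (-0.46, and -0.64 after correction). The phosphate importer SLC20A1 was the gene called higher, from 81.0 and 84.8 CPM to 94.9 and 101 CPM (0.23, and 0.25 after correction), and it was not called under median scaling (0.0083). Its relative SLC20A2 had 35.7 and 35.0 CPM against 35.98 and 38.5 CPM and was not called (0.073, adjusted p 0.291), but was called higher after correction (0.24). XPR1, the phosphate exporter, which bears another name, had 185 and 183 CPM against 229 and 241 CPM (0.35, and -0.93 after correction).

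The sugar, vitamin, choline and heme class of 19 genes had 7 called higher, 8 called lower and 4 in neither direction, with a median of -0.097. It holds the largest rise of the 110 carriers on the log2(CPM + 1) scale, while the ratio of mean CPM was larger for SLC26A7 (7.80-fold, on few reads). SLC5A3 (ENSG00000272962), the sodium-coupled importer of myo-inositol, had 11.5 and 14.6 CPM in the control and 55.2 and 65.9 CPM in the siAARS1 libraries, so each siAARS1 library was well above both controls. The mean was 4.64-fold higher, with a log2 fold change of 2.13 (SE 0.091, adjusted p 5.69e-15), and values of 1.92 to 2.30 under all the alternatives that could be computed. The correction gave no value, since this identifier had no GENCODE v29 entry.

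SLC5A3 shares its RefSeq start with MRPS6, a gene for a protein of the mitochondrial ribosome, and the promoter is shown because both genes are listed under the same 300 bases while their levels differed. The sequence lies on the plus strand of GRCh38.p14, and the 50 bases after the start are in capitals.
SLC5A3 and MRPS6, chr21:34073328-34073627: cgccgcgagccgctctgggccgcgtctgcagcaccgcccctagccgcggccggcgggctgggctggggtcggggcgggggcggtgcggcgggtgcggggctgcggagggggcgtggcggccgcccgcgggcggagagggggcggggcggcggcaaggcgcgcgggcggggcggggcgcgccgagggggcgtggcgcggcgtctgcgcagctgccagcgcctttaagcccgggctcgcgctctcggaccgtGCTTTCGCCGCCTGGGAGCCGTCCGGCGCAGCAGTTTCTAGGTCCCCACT
MRPS6 had 46.8 and 43.7 CPM in the control and 43.9 and 43.4 CPM in the siAARS1 libraries, with overlapping groups, and was not called (log2 fold change -0.05, adjusted p 0.438). Of the bases shown 82.0% are G or C. How reads were divided between these genes is not stated in the sources used here, and the levels of both depend on it.

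On the deposited CPM the choline carriers moved apart, while after correction SLC44A1 and SLC44A2 were both called lower. SLC44A1, the choline carrier of the plasma membrane and mitochondria (ENSG00000070214, chromosome 9, 105244622 to 105439171), had 192 and 202 CPM in the control and 251 and 276 CPM in the siAARS1 libraries (log2 fold change 0.41, and -0.97 after correction). SLC44A2, a choline carrier-like protein (ENSG00000129353, chromosome 19, 10602457 to 10644559), had 203 and 205 CPM against 105 and 101 CPM, a move in the other direction with no overlap. Its log2 fold change was -0.98 (SE 0.04, adjusted p 3.11e-15) and -0.69 after correction (adjusted p 1.38e-11). SLC44A5, of the same family, had 2.58 CPM in both controls and 6.80 and 8.99 CPM after the knockdown (1.30, and 0.48 after correction).

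Among the vitamin carriers, SLC5A6, which takes up biotin and pantothenate, had 90.2 and 95.9 CPM in the control and 111 and 113 CPM in the siAARS1 libraries (log2 fold change 0.26, and 0.54 after correction). SLC19A1, the reduced folate carrier, had 63.6 and 66.1 CPM against 78.0 and 75.1 CPM (0.24, and 0.61 after correction), and it overlaps COL18A1 on the opposite strand. These rises were larger after correction, and neither gene was called under median scaling (0.037 and 0.011). SLC52A2, a riboflavin carrier, had 58.7 and 57.6 CPM against 52.6 and 51.6 CPM, called lower (-0.16) and, after correction, higher (0.23), and without control replicate 1 it was not called (-0.14, adjusted p 0.0829). SLC33A1, which brings acetyl-CoA into the endoplasmic reticulum, had 30.9 and 31.4 CPM against 34.8 and 32.7 CPM and was not called (0.11, adjusted p 0.125). Its transcript of 9217 bases has 39.5% GC, and its corrected value of -1.18 (adjusted p 8.47e-11) was the lowest of the 109 carriers.

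SLC5A12, a low-affinity sodium-coupled carrier of lactate and other monocarboxylates, had 4.34 and 4.63 CPM in the control and 10.7 and 12.002 CPM in the siAARS1 libraries, well apart (log2 fold change 1.17, adjusted p 6.01e-09, and -0.019 after correction). SLC48A1, which moves heme out of endosomes, had 39.1 and 37.1 CPM in the control and 19.4 and 20.2 CPM in the siAARS1 libraries (-0.91, and -0.60 after correction), and it overlaps RAPGEF3 on the opposite strand. SLC46A3, a lysosomal carrier, fell from 5.60 and 5.58 CPM to 3.59 and 4.001 CPM (-0.46, and -0.93 after correction), and SLC45A3, a proton-coupled sugar carrier, fell from 5.60 and 4.98 CPM to 2.65 and 3.01 CPM (-0.72, and -0.45 after correction). FLVCR1, which is known for heme export and choline uptake, rose from 32.2 and 33.6 CPM to 47.2 and 49.2 CPM (0.54, and -0.054 after correction).

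The neurotransmitter, amino acid and peptide class of 11 genes had 3 called higher, 5 called lower and 3 in neither direction, with a median log2 fold change of -0.22. SLC6A15, a sodium-coupled carrier of neutral amino acids, had 25.5 and 26.7 CPM in the control and 41.4 and 43.7 CPM in the siAARS1 libraries (0.69, and -0.44 after correction). SLC36A4, of a proton-coupled amino acid carrier family, had 4.78 and 5.71 CPM against 7.74 and 8.09 CPM (0.52, and -0.84 after correction). In both the groups did not overlap, and both were called lower after correction. SLC36A1, the lysosomal relative, had 30.6 and 31.4 CPM against 30.2 and 30.9 CPM, with overlapping groups and no call (-0.021, adjusted p 0.784).

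SLC6A8, the creatine importer, had the highest level of its class per kilobase, at 36.1 CPM per kb in the control and 38.4 in siAARS1 cells. Its libraries had 134 and 137 CPM in the control and 144 and 145 CPM with siAARS1, without overlap. It was not called (log2 fold change 0.086, adjusted p 0.0618), but was called higher after correction (0.45) and lower under median scaling (-0.14). SLC6A6, the taurine importer, fell from 56.3 and 56.0 CPM to 44.2 and 44.1 CPM (-0.34, and -0.20 after correction). SLC15A4, which carries histidine and peptides out of lysosomes, fell from 18.9 and 17.6 CPM to 13.5 and 13.4 CPM (-0.41, and -0.23 after correction). The neutral amino acid carrier SLC43A1 fell from 33.02 and 34.6 CPM to 24.8 and 26.05 CPM (-0.40, and -0.085 after correction), and its relative SLC43A2 was called lower (-0.32), but not without siAARS1 replicate 2 (-0.22, adjusted p 0.0580) or after correction (-0.015, adjusted p 0.871).

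The class of organic ions, bile acids, carboxylates and fatty acids had 1 gene called higher, 7 called lower and 4 in neither direction, with a median log2 fold change of -0.25, and after correction 4 were higher and 3 lower. SLC22A17, a receptor for lipocalin-2 in the organic cation family (ENSG00000092096, chromosome 14, 23346306 to 23352912), had the largest fall of the 110 carriers on the log2(CPM + 1) scale. It had 28.5 and 26.8 CPM in the control and 10.0 and 9.47 CPM in the siAARS1 libraries, so that 35.3% of the control level remained, and the libraries of each group lay close together. By the ratio of mean CPM less remained of SLC17A7 (31.9%) and SLC4A3 (33.2%). The log2 fold change of SLC22A17 was -1.41 (SE 0.083, adjusted p 1.52e-12), and -1.04 after correction (adjusted p 4.49e-09). SLC22A18, an organic cation carrier-like protein of an imprinted region, had 59.5 and 57.0 CPM against 34.3 and 32.4 CPM (-0.79, and -0.41 after correction), and it overlaps SLC22A18AS on the opposite strand.

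Of the fatty acid carriers, SLC27A1 had 29.03 and 30.8 CPM in the control and 13.4 and 15.3 CPM in the siAARS1 libraries (log2 fold change -1.01, adjusted p 2.50e-10, and -0.65 after correction). SLC27A4 had 50.6 and 52.6 CPM against 44.3 and 39.9 CPM (-0.29, and 0.061 after correction). Neither gene had overlapping groups. SLC22A5, the carnitine importer, had 11.9 and 11.7 CPM against 10.0 and 8.90 CPM and was called lower (-0.29), but not without control replicate 1 (-0.28, adjusted p 0.0537) or siAARS1 replicate 2 (-0.21, adjusted p 0.117), nor after correction (-0.12, adjusted p 0.243). SLC22A23, a family member without a known substrate, was called lower as well (-0.32), but not without siAARS1 replicate 2 (-0.22, adjusted p 0.0533) or after correction (-0.022, adjusted p 0.807). SLC10A7, a relative of the bile acid carriers, was the gene called higher, with 3.93 and 3.75 CPM in the control and 5.70 and 7.10 CPM in the siAARS1 libraries (0.61, adjusted p 2.67e-04, and -0.27 after correction). Of 15 membrane carriers outside the rule because they bear other names 12 were listed, with 3 higher (32.6% of all genes were), 5 lower (38.0% of all genes were) and 4 not called. Among them SV2A, a synaptic vesicle protein of a carrier fold, fell from 114 and 111 CPM to 78.4 and 76.5 CPM (-0.54, and -0.29 after correction). SLCO3A1, an organic anion carrier, fell from 5.19 and 5.99 CPM to 3.24 and 3.76 CPM (-0.55, and -0.43 after correction).

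**Figure D5:**
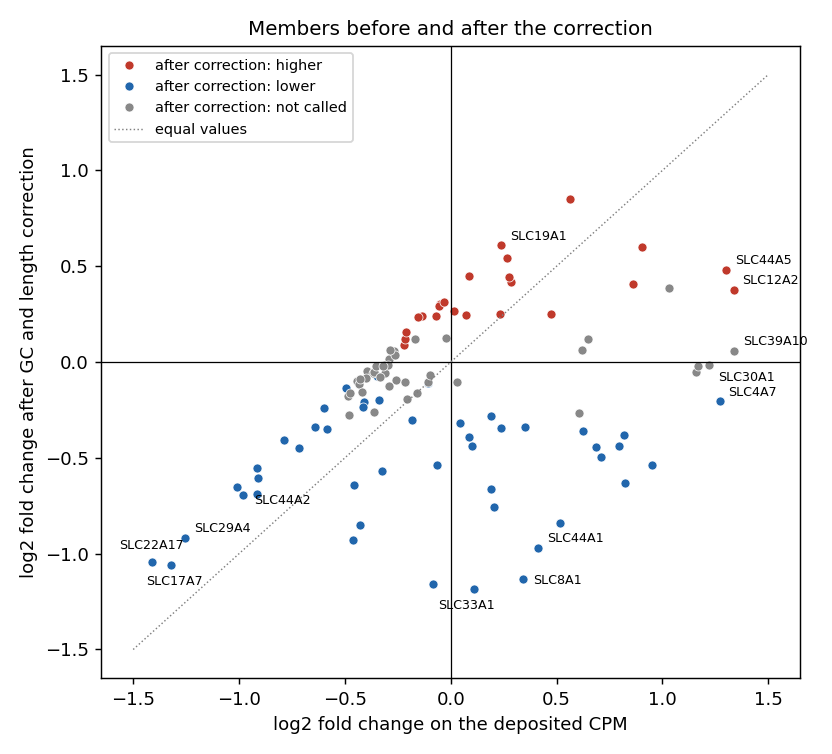
Log2 fold change of 109 carriers after correction for GC content and length (vertical axis) against the value on the deposited CPM (horizontal axis), coloured by the call after correction, with a dotted line where both are equal. Genes at the lower left, such as SLC22A17 (-1.41 and -1.04), are low on both axes, while SLC44A1 (0.41 and -0.97) and SLC8A1 (0.34 and -1.13) lie right of 0 and far below it.

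Of the 33 carriers called higher, 24 kept call and direction under all alternatives without the correction. With it included, 6 kept them under each alternative that gave a value: SLC12A2, SLC44A5, SLC18A2, SLC9A2, SLC39A8 and SLC5A3. SLC5A3 had no corrected value, so the correction could not remove its call. SLC18A2 was below a minimum mean of 5 CPM and had no value in that alternative. SLC44A5 and SLC9A2 reached that minimum only through the siAARS1 group. Of the 52 called lower, 32 kept call and direction without the correction and 18 with it included. Those 18 include SLC22A17, SLC17A7, SLC29A4, SLC27A1, SLC44A2, SLC30A3, SLC48A1, SLC22A18, SLC26A11 and SLC41A3. Of those named, SLC17A7 and SLC26A11 reached the minimum of 5 CPM only through the control group. SLC39A8, an importer of zinc and manganese, had 19.8 and 18.7 CPM in the control and 27.1 CPM in both siAARS1 libraries (log2 fold change 0.47, and 0.25 after correction). SLC18A2, which loads monoamines into vesicles, had 0.616 and 0.693 CPM against 2.14 and 2.04 CPM (0.90, and 0.60 after correction), on 21 and 22 reads in the control and 66 and 68 reads in the siAARS1 libraries.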

How the data were processed

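The authors deposited 1 table with CPM for 14431 genes in 4 libraries. The submitters' processing notes name RSEM 1.3.3 and the build hg38, without their role. The annotation, the use of strand and the scaling were not given in the sources used here. All deposited CPM values (100%) were whole multiples of 1 read, so whole reads were recovered. The authors' own fold changes and p-values were not used.

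The 14199 genes that reached a group mean of 1 CPM were tested with limma 3.58.1 (eBayes with trend, R 4.3.3) on log2(CPM + 1), siAARS1 against control, with Benjamini-Hochberg adjustment and a threshold of 0.05. That scale understates the change of low genes. Replicates differed by more than sampling noise (chi-square per gene 3.62 in control and 3.60 in siAARS1 libraries). Scripts were tested on simulated data. Alternatives were a pseudocount of 0.1, other filters and scalings, a threshold of 0.01, a replicate block, each library left out, edgeR 4.0.16 and DESeq2 1.42.0 on whole reads, and a correction for GC content and length (mgcv 1.9.3). Transcripts and coordinates came from GENCODE v29 (GRCh38), matched for 97.2% of genes, and promoters from RefSeq. A count of 3 reads, the limit that 0 reads allow, was worth 0.0880 to 0.0971 CPM, for counting error only.

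The carriers, classes and partner lists were chosen with earlier results of these data known. Named genes were, per class, up to 4 called rises and 4 called falls with the largest change and at least 5 CPM in the higher group, the most abundant gene, and genes with textbook roles, with up to 2 called partners in each direction per list. SLC4A3, SLC8A1, SLC18A2, SLC24A2, SLC26A7, SLC39A1, SLC39A8, MTF1 and genes named in short lists were chosen after their values were seen. Some members are counted but not reported here one by one.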

Additional observations from a re-analysis of the deposited data

How the results depend on the processing

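The number of carriers called higher ranged from 22 to 36 and the number called lower from 38 to 71 over all alternatives, and AARS1 was lower in each (log2 fold change -0.75 to -0.29). A pseudocount of 0.1 and no filter changed no call of the 110 carriers. With a threshold of 0.01, 31 were higher and 45 lower, and with a minimum of 5 CPM 29 and 50 of 96. Leaving out 1 library gave 30 to 32 higher and 44 to 48 lower, and 19 called carriers lost their call without at least 1 library. The lone library of a group was then taken to vary like the others.

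Under median scaling 9 carriers fell by 2-fold or more in place of 4, 8 of the neurotransmitter, amino acid and peptide class and 2 nucleotide sugar carriers were lower, and 4 of the sugar, vitamin, choline and heme class and 0 of the nucleoside and phosphate class were higher (1 before, SLC20A1, at 0.0083). DESeq2 called 0 nucleotide sugar carriers lower. Log2 fold changes of opposite sign included, under median scaling, SLC20A2 -0.15, SLC30A5 -0.034, SLC31A1 -0.18, SLC33A1 -0.11, SLC35A1 -0.026, SLC35A4 -0.21, SLC39A9 -0.14, SLC6A8 -0.14, SLC9A9 -0.11 and SLC9B2 -0.013, and under quantile normalization SLC20A2 -0.11, SLC31A1 -0.039, SLC33A1 -0.080, SLC35A1 -0.040 and SLC9B2 -0.023. Opposite signs on whole reads were SLC27A3 0.0059 and SLC36A1 0.017 (edgeR with TMM), SLC27A3 0.021, SLC36A1 0.032 and SLC4A2 0.0019 (edgeR with RLE) and SLC27A3 0.021, SLC36A1 0.031 and SLC4A2 0.0019 (DESeq2). With 1 library left out, the sign of 6 carriers that were not called depended on the library, with ranges that included -0.10 to 0.041 for SLC27A3, -0.12 to 0.0099 for SLC27A5, -0.011 to 0.047 for SLC35A4, -0.34 to 0.0016 for SLC45A4 and -0.012 to 0.071 for SLC9A9, and 4 to 7 carriers of organic ions, bile acids, carboxylates and fatty acids were called lower, the lowest number without siAARS1 replicate 2.

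After the correction for GC content and length no carrier of 109 rose by 2-fold or more (0 in place of 9, of which SLC5A3 had no corrected value). Of all 13819 genes in that fit 438 did. Falls of 2-fold or more were called for 5 carriers in place of 4, and for 292 of all these genes. By class 5 ion exchange, 2 metal ion, 3 nucleoside and phosphate, 1 nucleotide sugar and 4 organic ion carriers were higher, and 5 nucleoside and phosphate, 3 nucleotide sugar and 3 organic ion carriers were lower. Corrected values of opposite sign, the same with the replicate block, included FLVCR1 -0.054, SLC10A3 0.16, SLC10A7 -0.27, SLC12A9 0.24, SLC19A2 -0.35, SLC26A2 -0.44, SLC26A6 0.016, SLC27A3 0.31, SLC27A4 0.061, SLC27A5 0.29, SLC29A1 0.24, SLC30A1 -0.013, SLC30A5 -0.66, SLC30A6 -0.50, SLC30A7 -0.54, SLC30A9 -0.052, SLC31A1 -0.32, SLC33A1 -1.18, SLC35A1 -0.28, SLC35A3 -0.63, SLC35A5 -0.36, SLC35F5 -0.33, SLC36A1 0.12, SLC36A4 -0.84, SLC39A1 0.087, SLC39A9 -0.39, SLC41A2 -0.76, SLC44A1 -0.97, SLC45A4 0.12, SLC4A2 0.30, SLC4A4 -0.38, SLC4A7 -0.20, SLC52A2 0.23, SLC5A12 -0.019, SLC6A15 -0.44, SLC6A9 0.12, SLC8A1 -1.13, SLC9A5 0.038, SLC9A9 -0.11 and XPR1 -0.93. The cause was not tested.

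With the replicate number as a block 33 carriers were higher and 53 lower. Deviations of libraries with the same number correlated at 0.12 over genes, and with 2 pairs the libraries share a number without a stated pairing. With block and correction together 22 were higher and 45 lower, 4 of the sugar, vitamin, choline and heme class being higher.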
